A study of Homo sapiens with 20 samples.

Results

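HIF1A peaks that were called under hypoxia in RKO cells, in regions without a called peak of the other lines, and that lay close to a gene start are described here. RKO is a human colon carcinoma cell line. The set held 1100 of the 9171 peaks of the RKO hypoxia list (12.0%), and 1100 of the 19628 regions of the 4 hypoxia lists. A peak was a member when its region, built from connected overlaps of peaks in HCT116, RKO, A549 and H460, held no peak of another line and its centre lay within 2500 bp of the start of a protein-coding or lncRNA gene. The members were therefore chosen by measured values, the presence of a peak in RKO and its absence from the other lists. Tag counts and folds of the members are given as a description only, with no test.

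HIF1A ChIP-seq, the sequencing of DNA recovered with an antibody to HIF1A, had been done in the 4 lines in normoxia and after 24 h of hypoxia at 1% O2. HCT116 and RKO come from colon carcinomas, A549 and H460 from lung carcinomas, and no line carried a labelled deletion or drug. RKO contributed 2 hypoxia replicates, its normoxia replicates and 1 input library, which is genomic DNA sequenced without antibody. The authors pooled the replicates and then called peaks, which leaves 1 list per line and condition and no measure of the spread between replicates.

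HIF1A is the subunit of the hypoxia-inducible factor that is destroyed when oxygen is plentiful, through hydroxylation by the EGLN enzymes and the VHL ubiquitin ligase. In low oxygen it accumulates, pairs with ARNT and binds hypoxia response elements (HREs), short sequences whose core reads ACGTG or GCGTG. Many of these elements lie near the starts of genes for glycolysis, angiogenesis and oxygen sensing. The core contains a CpG, so it is found more often in the CpG-rich DNA of promoters.

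The libraries differed in how peaks were called. The header totals were 66.9 M tags in RKO hypoxia and 45.1 M in RKO normoxia, within 41.2 M to 81.5 M over the 8 lists (1 M is 1000000). The fold over input required was 6 in RKO, 7 in HCT116, 13 in A549 and 14 in H460. Of the members, 917 of 1100 (83.4%) reached a fold of 7, 374 (34.0%) reached 13 and 345 (31.4%) reached 14. Absence of a peak from another list therefore means that none passed that list's own threshold. The labels of the inputs disagree: the titles name an RKO and an A549 input, while the description of each names the other line. The source names of 3 of the 4 input libraries also name a line other than the one in the title. The file headers name an RKO input for the RKO lists, and whether the inputs were exchanged was not tested.

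The sequences of some of the strongest members, and of CCND1, which was also called in normoxia, show the range from a central HRE core to none. They are GRCh37 reference sequence, plus strand, 5′ to 3′, with each match to ACGTG or GCGTG on either strand in capitals. A peak that touched no exon is shown whole, and otherwise 29 bases at the match nearest its centre are shown. CACGTG, in the distal LIF peak, matches the core on both strands, and the proximal LIF peak has no match.
CD247, chr1:167486921-167487081: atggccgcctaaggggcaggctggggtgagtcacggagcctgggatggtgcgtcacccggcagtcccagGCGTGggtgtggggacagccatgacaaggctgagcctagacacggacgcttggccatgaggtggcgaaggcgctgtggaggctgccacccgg
PIP5KL1, chr9:130693943-130694103: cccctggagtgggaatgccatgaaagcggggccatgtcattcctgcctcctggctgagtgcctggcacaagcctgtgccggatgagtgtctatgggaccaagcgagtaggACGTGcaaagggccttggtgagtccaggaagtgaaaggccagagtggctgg
LIF, distal peak, chr22:30644518-30644678: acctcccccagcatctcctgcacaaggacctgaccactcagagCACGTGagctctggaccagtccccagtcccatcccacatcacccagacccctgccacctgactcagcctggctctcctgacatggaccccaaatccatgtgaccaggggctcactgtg
LIF, proximal peak, chr22:30643984-30644144: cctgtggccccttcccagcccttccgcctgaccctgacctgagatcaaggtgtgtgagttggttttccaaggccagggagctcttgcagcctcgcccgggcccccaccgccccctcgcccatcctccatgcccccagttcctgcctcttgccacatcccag
PDCD6IP, chr3:33840624-33840652: ttgtcctgcctgCACGTctgctctagccc
RAB21, chr12:72148564-72148592: ccCACGTccaggCACGTtcttctggggct
RUSF1-DT, chr16:31519725-31519753: gccgcacggtggACGTGgcaggcggcact
CCND1, chr11:69457729-69457757: gggggtgcggggGCGTGcgggggggcggc

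The next 2 sequences come from members without a core in the 200 bp at their centre, and show 29 bases at the peak centre.
ENSG00000225339 (in HMGA1), chr6:34213974-34214002: cagttacttgaataaaaaaaatatccttt
MT2A, chr16:56643522-56643550: gtgcattctggcaagccaggctactgcac

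The strongest member lay in an intron of CD247, 876 bp downstream of its start. CD247 encodes the zeta chain of the T cell receptor complex. The peak reached a normalized tag count of 24.8 tags per 10 M, from 166 tags, and ranked 32 in the RKO hypoxia list. With 1 input tag, counted at the scale of the smaller library, its fold over input was 93.4. The nearest peak of another line was 35757 bp away. PIP5KL1, which encodes a phosphatidylinositol phosphate kinase-like protein, had a peak at 13.2 tags per 10 M, 959 bp upstream of its start, with another line's peak 695 bp away. VPS28, a subunit of the ESCRT-I sorting complex, had 12.3 tags per 10 M at 118 bp upstream. PDCD6IP, an adaptor of the same pathway, had 10.2 tags per 10 M at 531 bp downstream, in a noncoding exon. LIF, a cytokine, had 2 members upstream of its start, with 10.0 tags per 10 M at 1850 bp and 8.22 tags per 10 M at 1316 bp. Of these 5 genes, PIP5KL1 and LIF also had a peak of another line within 2500 bp of the start.

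Naming by the nearest start did not always name the gene in which a peak lay. The second strongest member, at 22.4 tags per 10 M, was nearest to lncRNA ENSG00000225339 but lay in a UTR of HMGA1, which encodes a chromatin protein that binds AT-rich DNA. The member nearest ENSG00000279232, at 12.6 tags per 10 M, lay in a UTR of RGMB, a co-receptor for bone morphogenetic proteins. The member nearest EEF1A1-AS1, at 8.97 tags per 10 M, lay in a UTR of EEF1A1, the translation elongation factor that delivers aminoacyl-tRNA. MT2A, a metallothionein that binds zinc and copper, was the nearest gene of a member with 10.6 tags per 10 M, 1040 bp downstream of its start, which lay in an exon of lncRNA ENSG00000260823. The members at MT2A, ENSG00000225339 and ENSG00000279232 had no core, and the other 7 of the 10 strongest members had the core. RAB21, an endosomal GTPase, had 9.72 tags per 10 M at 57 bp upstream, with the core.

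Members were of typical strength for the RKO hypoxia list and weaker than the shared peaks near starts. The middle member had a normalized tag count of 3.44 tags per 10 M (lower quartile 3.14, upper quartile 3.89, range 2.09 to 24.8). The median over all RKO hypoxia peaks was 3.29, which 557 members (50.6%) exceeded, and 179 members were among the 1000 strongest. The median was 3.14 for 7039 RKO-only peaks farther from gene starts and 5.83 for 764 RKO peaks near gene starts in regions shared with another line. Only 122 members (11.1%) reached 5 tags per 10 M, against 469 shared peaks near starts (61.4%) and 84 RKO-only far peaks (1.19%). The medians over the members were 23 tags, 1 input tag, a fold over input of 11.8 and a fold over the surrounding 10000 bp of 4.92. Input tags were scaled to the smaller of the ChIP and input libraries and the tags were not, so their ratio is not the fold. No input tag lay in 21.5% of the members, for which the fold rests on a substituted value of 0.5. At the limit of the distance rule, 14 members at 2401 to 2500 bp had a median of 3.22 tags per 10 M, and 20 RKO-only peaks beyond 2500 and up to 2600 bp had 3.29.

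Within the 2500 bp that the rule allowed, members were densest close to the start, but 369 (33.5%) lay at 1000 bp or more. Of the members, 543 (49.4%, Wilson 95% interval 46.4 to 52.3) lay within 500 bp of the nearest start, and 589 of the 764 shared RKO peaks (77.1%) did. For the peaks near starts that other lines alone held, the share was 72.7% in HCT116, 51.5% in A549 and 65.2% in H460. These shares are descriptions, because distance and sharing were used to choose the members. Intervals here, Newcombe intervals of differences below included, cover counting error only, since neighbouring peaks and shared libraries are not replicates. Members lay upstream of the start in 514 cases (46.7%, 43.8 to 49.7). By annotation, 393 centres lay in introns, 302 between genes, 207 in UTRs, 136 in noncoding exons and 62 in coding exons. For 369 members (33.5%) more than 1 gene start was in reach, and for 334 (30.4%) starts on both strands were.

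**Figure D1:**
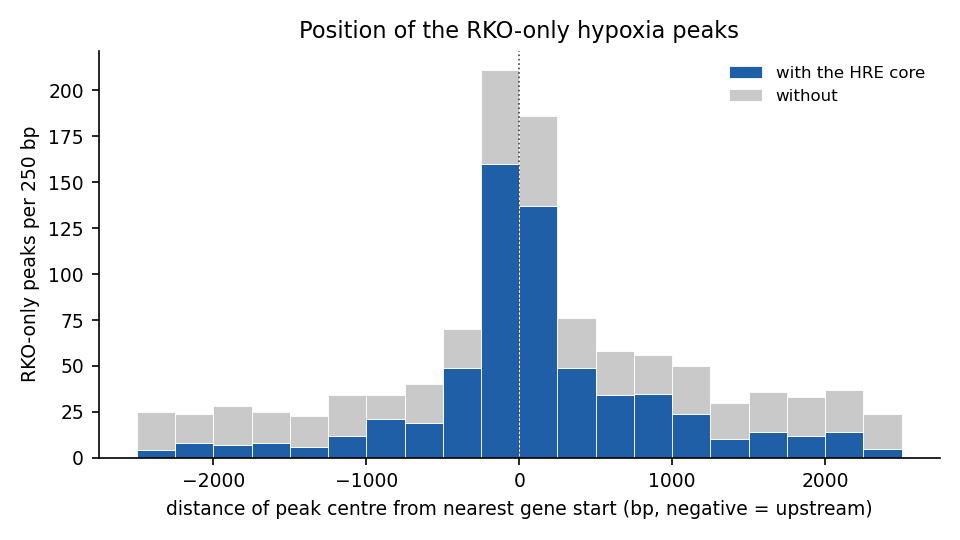
Number of RKO-only hypoxia peaks per 250 bp by signed distance of the peak centre from the nearest gene start in bp, with blue for peaks that held the HRE core in the central 200 bp and grey for those that did not. Of the 397 peaks within 250 bp of a start 297 held the core, and of the 369 peaks at 1000 bp or more 124 did.

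The HRE core was present in 628 of the 1100 members (57.1%, 54.1 to 59.99) when the central 200 bp were read on either strand. This share lay between those of the other RKO classes. Flanking 200-bp windows placed 2000 bp away held it in 27.3%, the windows at all gene starts in 36.6%, RKO-only far peaks in 17.5% and shared RKO peaks near starts in 92.0%. Members exceeded the flanking windows by 29.8 points (26.3 to 33.2) and all gene starts by 20.4 points (17.5 to 23.4). ACGAG or GCGAG, a control word with the same CpG and GC content, was in 41.7% of members, 19.0% of the flanking windows and 39.3% of gene starts. For it the excess of the members was 22.8 points (19.4 to 26.1) over the flanking windows and 2.45 points (-0.468 to 5.43) over all gene starts. Members differed from the shared peaks by -34.9 points (-38.3 to -31.3) for the core and by -17.3 points (-21.8 to -12.7) for the control word. The peaks near starts that other lines alone held had the core in 71.7% (HCT116, 990 peaks), 63.9% (A549, 924) and 81.0% (H460, 1023). The differences of the members from these were -14.6 points (-18.6 to -10.5), -6.76 points (-11.0 to -2.48) and -23.9 points (-27.7 to -20.1), between lists that were called at different thresholds. The control word differed in the same direction, by -18.98 points (-23.1 to -14.7), -2.65 points (-6.97 to 1.68) and -14.5 points (-18.6 to -10.2).

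The core was concentrated at the peak centre. Members held 34.4 and 32.1 matches per 100 peaks in the 50-bp bins on either side of the centre, and 13.9 in the bin that began 500 bp upstream of it. For the control word these values were 16.5, 17.4 and 12.8. Shared peaks near starts held 75.8 and 82.7 core matches per 100 peaks in the central bins, and RKO-only far peaks held 6.69 and 6.73. At least 2 matches in the 200 bp were found in 329 members (29.9%) and in 451 shared peaks (59.0%).

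**Figure D2:**
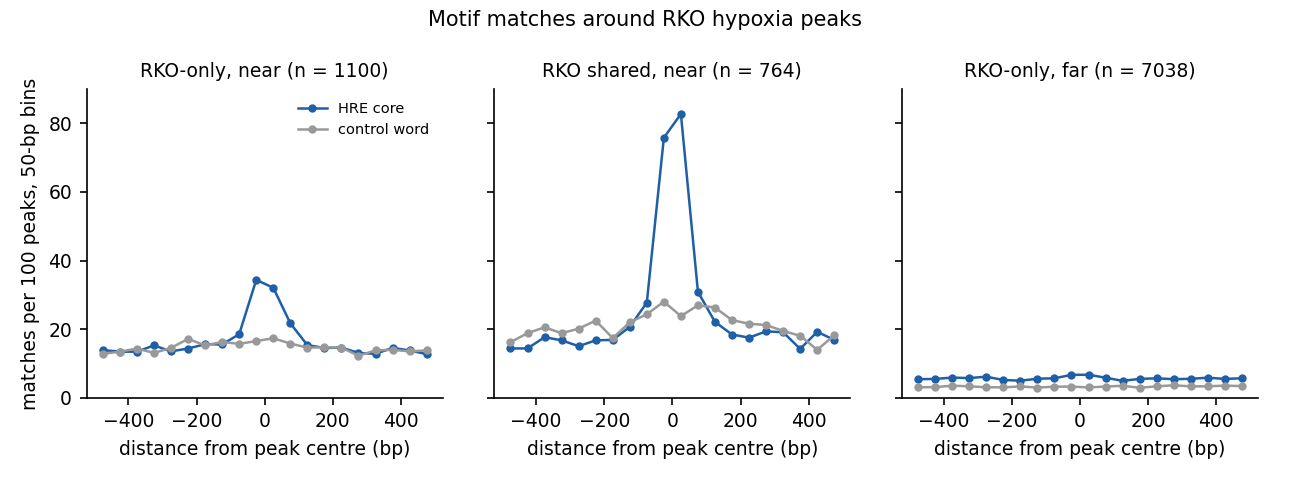
Matches per 100 peaks in 50-bp bins against distance from the peak centre in bp, for members (left), shared RKO peaks near starts (middle) and RKO-only far peaks (right), with the HRE core in blue and the control word in grey. The core rises to 34.4 per 100 peaks at the centre of the members and to 82.7 in shared peaks, while the control word in members goes from 12.8 to 17.4.

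The share of members with the core differed with position, CpG count and strength, which went together, and their separate parts were not tested. It was 74.8% (70.3 to 78.8) within 250 bp of the start and 33.6% (28.98 to 38.6) at 1000 bp or more, a difference of 41.2 points (34.5 to 47.3). The median CpG count per 200 bp was 19 and 3 in these classes. Shared peaks at 1000 bp or more held the core in 94.5% of 73 cases, with a median of 14 CpG. From the weakest to the strongest of 4 equal classes by normalized tag count, ties taken in file order, the share in members was 40.4%, 49.1%, 57.5% and 81.5%, and the median CpG count was 5, 7, 10 and 16. Over all members the median was 10 CpG, against 1 in RKO-only far peaks and 20 in shared peaks near starts.

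At an equal CpG count members still held the core more often than gene starts did. At 11 to 15 CpG it was found in 77.8% of 158 members and 49.6% of 3951 start windows, a difference of 28.2 points (20.98 to 34.2). At 3 to 5 CpG the shares were 45.7% and 30.3%, a difference of 15.4 points (7.59 to 23.4). At 1 or 2 CpG they were 18.6% and 13.3%, a difference of 5.35 points (0.185 to 11.9). The control word was found in 58.2% of members and 54.4% of starts at 11 to 15 CpG, and in 21.2% and 24.8% at 3 to 5. RKO-only far peaks with as many CpG held the core in 35.7% of 1287 cases at 3 to 5. The share was 61.4% of 337 at 6 to 10, where members had 61.7%, and 81.4% of 59 at 11 to 15. With more CpG it was below that of the members, at 59.4% of 32 against 80.3% at 16 to 20. At 21 or more it was 61.3% of 31 against 81.9%. Windows without a CpG, 85 of the members, cannot hold either word.

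**Figure D3:**
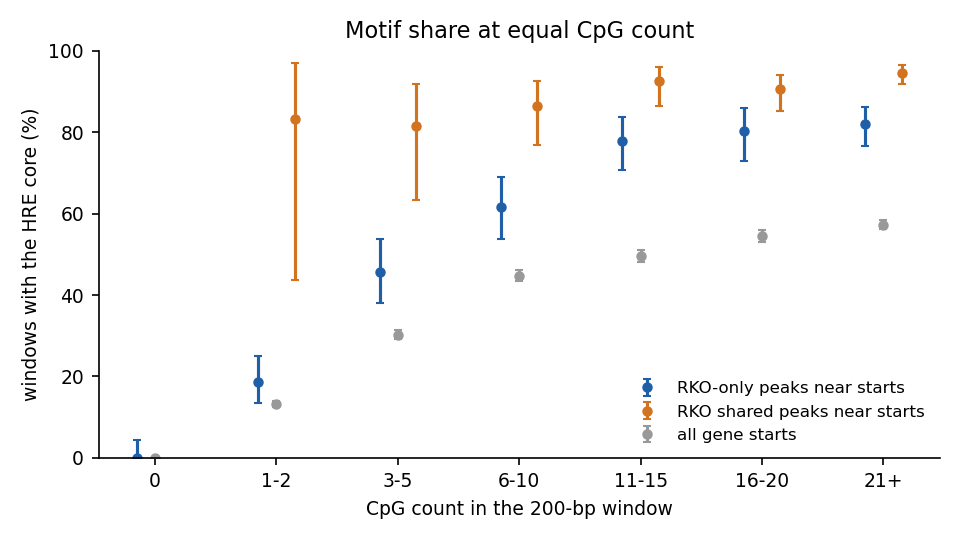
Percentage of 200-bp windows with the HRE core against their CpG count, for members (blue), shared RKO peaks near starts (orange) and all gene starts (grey), with Wilson 95% intervals. Members lie above the gene starts in each class with a CpG, from 18.6% against 13.3% at 1 or 2 CpG to 81.9% against 57.3% at 21 or more.

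Other promoter words were searched in the same windows. GGGCGG, the GC box bound by SP1, was in 36.1% of members and 33.0% of starts, a difference of 3.07 points (0.243 to 5.99). The shares for members and starts were close for CCGGAAG, an ETS-family word, with 7.73% and 7.13% (-0.863 to 2.34 points), and TGANTCA, the AP-1 word, with 5.82% and 5.33% (-0.765 to 2.05 points). CCAAT, bound by NFY, was in 21.1% and 25.5%, a difference of -4.40 points (-6.75 to -1.85), and TATAAA in 7.55% and 8.57%. TGACGTCA, the cAMP response element, was in 0.818% and 1.30%. CACGTG, the E-box that holds the HRE core on both strands and is also bound by MYC and USF, was in 9.55% of members and 4.90% of starts, a difference of 4.65 points (3.04 to 6.54). The longer words for NRF1, YY1 and HSF were in 6, 4 and 3 members, with shares of all starts of 0.865%, 0.603% and 0.306%. That for CTCF was in none of the 1100 members and in 0.0129% of the starts.

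Few members were also called in normoxia. A peak of the RKO normoxia list overlapped 23 of the 1100 members (2.09%, 1.40 to 3.12), and 1.07% of all RKO hypoxia peaks. The share was 0.483% in RKO-only far peaks, a difference of 1.61 points (0.888 to 2.64), and 4.06% in shared peaks near starts, a difference of -1.97 points (-3.75 to -0.399). The core was in 9 of the 23. A normoxia peak of another line overlapped 5 members (0.455%), against 0.96% of all RKO hypoxia peaks. Such a peak overlapped 7.59% of the shared peaks near starts and 0 of 7039 RKO-only far peaks. Members and RKO-only far peaks were chosen for having no hypoxia peak of another line, so these shares are descriptions. Both RKO lists share 1 input, and the normoxia library had fewer tags, so a peak not called there was not shown to be absent.

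In the members called in both conditions the log2 ratio of hypoxia to normoxia ran from -0.78 to 0.84. The HMGA1 member had 22.4 tags per 10 M in hypoxia and 20.0 in normoxia. MT2A had 10.6 and 8.87, and LY6K, a cell-surface protein of the Ly6 family, had 10.0 and 7.32. CCND1, which encodes cyclin D1, had 8.07 and 6.43 in an intron 1826 bp downstream of its start. The proximal LIF peak had 8.22 and 6.43, the PHLDA1-AS1 peak in a UTR of PHLDA1 had 8.07 and 6.21, and the peak 81 bp upstream of the lncRNA MALAT1 had 7.03 and 4.66. THOC6, a subunit of the mRNA export complex THO, had 7.03 and 4.88, IER3-AS1 had 6.88 and 5.99, and ACTL10 had 6.73 and 3.77. The hypoxia value was the higher in 17 of the 23 and the median log2 ratio was 0.20. Peaks were 160 bp wide in hypoxia and 136 bp in normoxia. Per bp of peak the hypoxia value was the higher in 11 of 23, with a median log2 ratio of -0.03. B3GALT4, a glycosyltransferase gene, went furthest toward normoxia, with 6.58 tags per 10 M in hypoxia and 11.3 in normoxia.

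**Figure D4:**
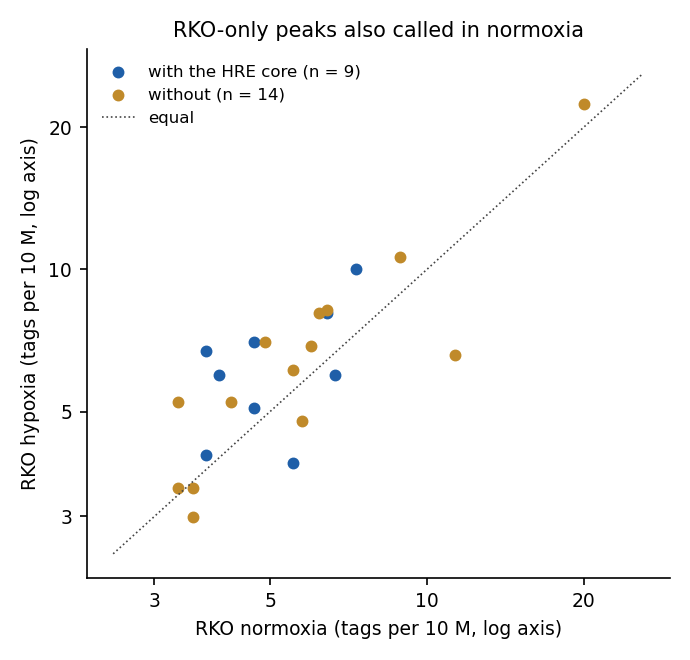
Normalized tag count in RKO hypoxia against RKO normoxia for the 23 members called in both, in tags per 10 M on log axes, with peaks that held the HRE core in blue and the others in ochre, and the dotted line at equal values. Of the 23 points 17 lie above the line, before the difference in peak width is taken into account.

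A line-specific peak did not mean that the gene start was bound in RKO alone. For 240 of the 1100 members (21.8%) a hypoxia peak of another line was within reach, 2500 bp, of the same nearest start, and 13.8% of all gene starts had such a peak. HCT116 had a peak at 115 of these starts, A549 at 98 and H460 at 115. A peak of another line lay within 100 bp of 35 members without overlap, and these had a median of 3.74 tags per 10 M and the core in 74.3%. The core was in 61.2% of the 240 members and in 55.9% of the other 860.

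Counted by gene, 1471 of 38865 protein-coding and lncRNA gene starts (3.78%) had a member within 2500 bp, and 992 of 20163 protein-coding starts (4.92%). The nearest start was protein-coding for 764 members and an lncRNA for 336. The members had 1071 different nearest genes, of which 28 had more than 1. DLG4 had 3, all of which lay within the neighbouring gene ACADVL, a mitochondrial acyl-CoA dehydrogenase, at 4.19, 4.19 and 3.44 tags per 10 M. LINC02985 had 2, at 6.73 and 3.44, B3GALT4 had 2, at 6.58 and 3.29, and ENSG00000266651 had 2 at 5.23 each, both in a UTR of LRRC75A.

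Members were counted at genes best known as HIF1A targets, where 4.92% of all protein-coding starts had one. None of 27 genes of glycolysis and glucose uptake did (0%, 0 to 12.5), while 15 of them had an RKO peak shared with another line, among them SLC2A1, HK2, LDHA and PDK1. A hypoxia peak of another line was near the start of 20 of the 27, and an RKO peak that overlapped one could not be a member. The 0% is therefore a description. Of 40 classical hypoxia targets 4 had a member (10.0%, 3.96 to 23.1), and 18 had a shared RKO peak, with ANGPTL4 and DDIT4 in both counts. ANGPTL4, a lipoprotein lipase inhibitor, had 4.04 tags per 10 M at 1390 bp downstream, with the core. DDIT4, an inhibitor of mTORC1, had 3.74 at 833 bp upstream. MXI1, a MYC antagonist, had 3.14 at 19 bp downstream, and JMJD6, a lysyl hydroxylase, had 3.14 at 1275 bp upstream, and these 3 had no core. All 4 starts also had a hypoxia peak of another line. Among 16 genes of the HIF subunits and oxygen sensing, EGLN2, a prolyl hydroxylase, had the only member (6.25%, 1.11 to 28.3), of 4.78 tags per 10 M, 162 bp downstream, with the core. The EGLN2 start also had a hypoxia peak of another line, 72 bp from the member. The intervals of these 3 lists include 4.92%.

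Genes of protein synthesis were among those with the higher shares. Among 84 genes named as cytosolic ribosomal proteins, 11 had a member (13.1%, 7.47 to 21.9), against 4.92% of protein-coding starts, and 10 of these peaks held the core. The highest were RPS3A with 5.98 tags per 10 M, RPL11 with 5.08, RPS14 with 4.33 and RPS21 with 3.89. RPL7L1, a ribosome biogenesis factor, was counted by its name. A shared RKO peak was found at 4 of the 84. Of 69 genes with names of translation factors 9 had a member (13.04%, 7.02 to 22.97), led by EIF4E, the cap-binding protein, with 4.78 and EIF3H with 4.33. A hypoxia peak of another line was also near the start of 4 of these 9, EIF4E among them. The same held for 4 of the 11 ribosomal protein genes and for 24.5% of all gene starts with a member. EEF2K and EEF1AKMT4, at 3.89 each, are enzymes that modify elongation factors. Of 78 mitochondrial ribosomal protein genes 5 had a member (6.41%, 2.77 to 14.1), the highest at MRPL45 with 4.78. Of 18 tRNA synthetase genes 2 had one, IARS1 with 4.78 and RARS1 with 3.29. The intervals of the cytosolic ribosomal proteins and the translation factors lay above 4.92%, and those of the mitochondrial ribosomal proteins and tRNA synthetases included it. The lists were chosen with earlier results of these data known, and their shares are descriptions.

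Other lists had members in 0 to 35 genes, where 4.92% of all protein-coding starts had one. Of 36 genes of DNA replication and the cell cycle 5 had a member (13.9%, 6.08 to 28.7): CCND1 with 8.07 tags per 10 M, the helicase subunit MCM4 with 7.18, the ribonucleotide reductase subunit RRM2 with 6.13, PCNA with 3.74 and RB1 with 3.44. The starts of MCM4 and RRM2 also had a hypoxia peak of another line. Histone genes had a member in 8 of 74 cases (10.8%, 5.58 to 19.9). The peak at H2BC10 was also in reach of H3C8, and the peak at H1-1 also in reach of H3C1. Proteasome names gave 5 of 48 (10.4%, 4.53 to 22.2), led by PSMD3 with 4.48, and PSMG3 and PSMG2 among them are assembly chaperones. Splicing factors gave 6 of 72 (8.33%, 3.88 to 17.0), all with the core, led by HNRNPH3 with 4.04. Zinc finger genes gave 35 of 514 (6.81%, 4.94 to 9.32), led by ZNF613 with 6.28. Respiratory chain names gave 4 of 93 (4.30%, 1.69 to 10.5), and heat shock and chaperone genes 3 of 33 (9.09%, 3.14 to 23.6) with HSF2 at 5.53. The snoRNA host genes gave 3 of 32 (9.4%, 3.24 to 24.2) with SNHG19 at 4.78. SNHG19 is an lncRNA, and 2.56% of all lncRNA starts had a member. Immediate early genes gave 1 of 38 (2.63%, 0.466 to 13.5), IER3 at 6.88, through the peak named IER3-AS1 above. None of 22 genes of the integrated stress response had a member (0 to 14.9). The intervals of the DNA replication, histone and zinc finger lists lay above 4.92%, and those of the other lists named here included it. For the zinc finger genes the lower limit, 4.94%, was barely above. One peak was in reach of both ZNF398 and ZNF425, and another of both ZNF449 and ZNF75D. The intervals count genes that share a peak, the histone genes included, as separate cases.

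**Figure D5:**
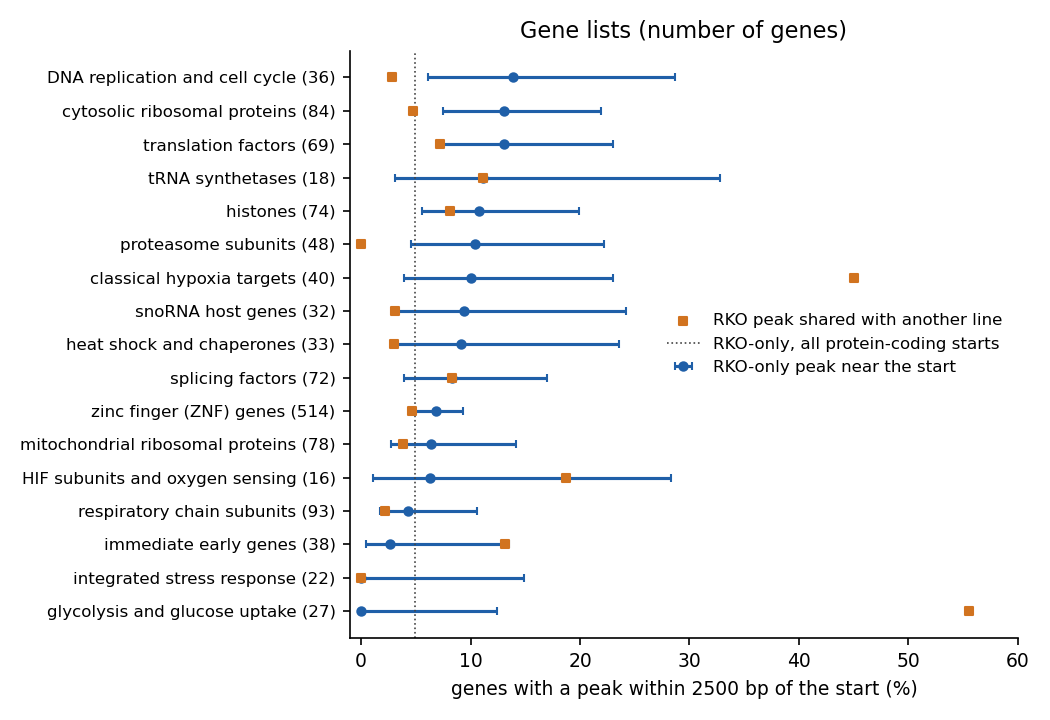
Percentage of the genes of each list described here with a peak within 2500 bp of the start, with list sizes in parentheses: blue points are members with Wilson 95% intervals, orange squares are RKO peaks shared with another line, and the dotted line is the 4.92% of all protein-coding starts with a member. Glycolysis has 0% members and 55.6% shared peaks, and cytosolic ribosomal proteins have 13.1% and 4.76%. RKO peaks that overlap a peak of another line count for the squares and cannot be members. The squares cover the points where both shares are equal.

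Members were unevenly spread over chromosomes. Chromosome 20 had 49.5 members per 1000 gene starts, chromosome 9 had 48.9, chromosome 8 had 40.8 and chromosome 7 had 40.0, while chromosome 1 had 26.05 and chromosome X 9.74. Shared peaks near starts numbered 14.6, 18.9, 17.6 and 18.05 per 1000 starts on chromosomes 20, 9, 8 and 7, 22.8 on chromosome 1 and 8.93 on X. RKO-only far peaks were also frequent on chromosomes 20, 9, 8 and 7 for their number of gene starts. They numbered 331, 596, 1058 and 682 there, beside 1030, 1432, 1592 and 1773 starts. Chromosome 1 held 413 of them beside 3647 starts, and X held 176 beside 1232. Chromosome 8 held 15.0% of all RKO-only far peaks. The mean input tag count of RKO hypoxia peaks was 1.24 on chromosome 20, 1.30 on 9, 1.35 on 8, 1.22 on 7, 1.26 on 1 and 1.00 on X, and its part in the spread was not tested.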

How the data were processed

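Per the labels and the methods of the study, reads were aligned to GRCh37 (hg19) and filtered by mapping quality. The submitters' processing notes name Bowtie2 2.2.9, SAMtools 1.3.1, Picard 1.129 and HOMER 4.3. Per the file headers, the authors merged the replicates of each line and condition and called peaks with HOMER findPeaks against the input of the line, with a false discovery rate of 0.001 and a p-value over input of 0.001. The deposited signal is the normalized tag count, scaled by the authors to 10 M tags. The deposited fold ratios compare a peak with the input and with the surrounding 10000 bp. A deposited fraction, from 0 to 1, gives the share of tags on the expected side of the peak centre, and the deposited ChIP tags, kept here as a score, are scaled to the smaller of the ChIP and input libraries, as are the input tags. The whole tags printed were computed from the normalized count and the header total.

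The members and the gene lists were chosen with earlier results of these data known. Overlap required 1 bp. Gene starts were the 5′ ends of 38865 GENCODE release 44 genes mapped to GRCh37. Words were searched on both strands in 200 bp at the peak centre, 2000 bp to either side, and at gene starts. Shares carry Wilson and differences Newcombe 95% intervals. No test over replicates was possible. The joins, the word search and the intervals were tested on simulated data. Named members were the 10 with the highest normalized count, the next 5 with the core, up to 10 also called in RKO normoxia, up to 4 genes per list by count, and up to 5 genes with more than 1 member, and other list members were named after their values were seen. Some items that the rule and the lists select are not reported here. Alternatives were the distance, the start annotation, the peak thresholds, the joining distance, the word window and leaving out each other line. Python 3.11.15 with numpy 2.4.6 and pandas 2.3.3 was used.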

Additional observations from a re-analysis of the deposited data

How the results depend on the processing

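No paired analysis was possible because the replicates of each line and condition had been merged before peak calling, and for the same reason no replicate could be left out. The number of members, 1100 as reported, was 731 within 1000 bp of a start and 543 within 500 bp, 1756 with every annotated transcript start, 374 where all lists had to reach a fold of 14 over input, 345 with that fold in the RKO hypoxia list alone (chosen after seeing the data) and 301 at a local fold of at least 6. The share with the core, 57.1%, was 68.9% within 1000 bp, 72.7% within 500 bp, 46.4% with transcript starts, 61.8% at the fold of 14, 76.1% at the local fold of 6, 60.4% with at least 1 input tag, 60.8% without H460 and also 60.8% without HCT116, 41.6% in a 100-bp window and 52.4% in the whole deposited peak. The share called in RKO normoxia, 2.09%, became 3.99% at the local fold of 6. The share whose start had a peak of another line, 21.8%, was 18.1% within 1000 bp, 12.2% within 500 bp, 15.5% with transcript starts, 11.6% at the local fold of 6, 17.8% with at least 1 input tag, 13.3% with peaks within 500 bp joined, 17.99% without A549, 15.5% without H460 and 16.6% without HCT116. The median CpG count, 10, was 15 within 1000 bp, 17 within 500 bp, 5 with transcript starts, 14 at the local fold of 6, and 12 at the fold of 14, with at least 1 input tag, without H460 and without HCT116. Apart from what a nearer distance, fewer lists or a higher threshold fix by construction, the cause of these shifts was not tested. The weakest members rest on 14 tags and about 1 input tag, which limits what their folds can show.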
